A study of Homo sapiens with 9 samples.

Results

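A set of 9 genes known as drivers or checkpoints in adrenocortical carcinoma was followed in H295R cells, an established human line that came from such a tumour and makes steroid hormones. The genes were taken by name from the deposited read counts, 9 of 60671 genes listed, and were the chromatin genes ATRX, DAXX and MEN1, the cell cycle genes RB1, CDK4, CDKN2A and CDKN1A, the ubiquitin ligase gene MDM2 and the telomerase gene TERT. The rule goes by gene name and sets no measured value. RNA was sequenced from cells labelled SGPL1 OE (overexpression), cells labelled SGPL1 KO (knockout) and WT H295R cells, all without treatment, with 3 libraries in each group. SGPL1 encodes sphingosine-1-phosphate lyase, which breaks down the signalling lipid sphingosine-1-phosphate. The series set cells labelled as having more and less of it side by side. Per the design text, replicates within a group were biological. The sources used here do not give the overexpression construct, where the knockout edit lies or whether a group was 1 clone or a pool, so a difference between groups cannot be told apart from a difference between clones.

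As background, CDK4 with a D-type cyclin phosphorylates the retinoblastoma protein RB1, which otherwise holds the E2F factors and keeps the cell in G1. CDKN2A encodes p16, an inhibitor of CDK4, and from another reading frame ARF, an inhibitor of MDM2, while CDKN1A encodes p21, an inhibitor of cyclin-dependent kinases that is switched on when the stress-activated factor degraded by MDM2 is released. Menin (MEN1) is a scaffold of histone H3 lysine methyltransferases, ATRX and DAXX place histone H3.3 at telomeres and other repeats, and TERT is the catalytic subunit of telomerase. Losses of RB1, CDKN2A, MEN1, ATRX and DAXX and gains of TERT, MDM2 and CDK4 are known from adrenocortical tumours.

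The libraries held 8006873 to 10895080 counts. SGPL1 was at 93.5 ± 10.7 CPM (counts relative to the library total as scaled by TMM, mean and SD, n = 3) in OE-labelled libraries, 48.3 ± 5.05 CPM in KO and 94.3 ± 9.64 CPM in WT. It was lower in KO than in WT (log2 fold change -0.97 ± 0.14, adjusted p = 0.000105) and was not higher in OE-labelled libraries than in WT (-0.01 ± 0.14, adjusted p = 0.966). The label OE is therefore kept as a label, and each direction below that involves it rests on libraries whose SGPL1 counts did not exceed those of WT. All 12 adrenocortical markers had counts in every library, among them NR5A1 at 685 to 983 CPM and STAR at 301 to 603 CPM, while PTPRC of leukocytes, LUM of fibroblasts and KRT5 of basal epithelium had 0 counts throughout. EPCAM of epithelium reached 10.5 to 31.9 CPM and COL1A1 of fibroblasts 8.07 to 13 CPM, and no endothelial marker exceeded 4 counts. Marker sums moved with the groups. The 12 adrenocortical markers summed to 7024 to 8160 CPM in OE-labelled libraries, 8814 to 10840 CPM in KO and 5284 to 6010 CPM in WT, with no overlap between any of the groups. The 5 epithelial markers, 2 to 4 of them with counts in a library, summed to 30.1 to 34.6 CPM in OE-labelled libraries, 14.4 to 17.8 CPM in KO and 27.1 to 31.1 CPM in WT, so that KO lay below both other groups. The 5 fibroblast markers, again 2 to 4 with counts, summed to 9.27 to 11.4 CPM in OE-labelled libraries, 13.4 to 15.4 CPM in KO and 8.31 to 13 CPM in WT. Most of the adrenocortical sum in each library came from DLK1 (2470 to 6303 CPM over the 9 libraries) and SCARB1 (990 to 2178 CPM), while CYP17A1 stayed at 55.3 to 70.1 CPM. EPCAM made up most of the epithelial sum and COL1A1 most of the fibroblast sum. The part of these sums in the differences given below was not tested. The libraries differed in how their counts changed with transcript length. After each gene was centred on the average of the 3 group means, the slope of log2 CPM on log2 length was -0.075, -0.204 and -0.083 in OE-labelled libraries, 0.042, 0.085 and 0.129 in KO, and 0.056, -0.053 and 0.103 in WT, so that replicate 2 stood lowest in both the OE and the WT group.

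Of the 9 genes, 8 had enough counts to be tested, and CDKN1A was the one that was lower than in WT both in KO and in OE-labelled libraries. The threshold was an adjusted p under 0.05 by edgeR's quasi-likelihood test over the 14150 genes that passed the count filter. In OE-labelled libraries against WT, 0 of the 8 genes were higher and 2 were lower, ATRX and CDKN1A, where 20.7% of all genes tested were called (9.65% higher and 11% lower). KO libraries against WT had 0 higher and 1 lower, CDKN1A, where 18.8% of all genes were called (9.16% higher and 9.6% lower). In OE-labelled libraries against KO, 0 were higher and 3 were lower, ATRX, MEN1 and RB1, where 39.7% of all genes were called (19% higher and 20.6% lower). These shares of members lie near those of all genes and mark nothing particular to the 9 genes as a set. The 3 comparisons share their libraries pairwise, so they are not independent of each other.

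**Figure D1:**
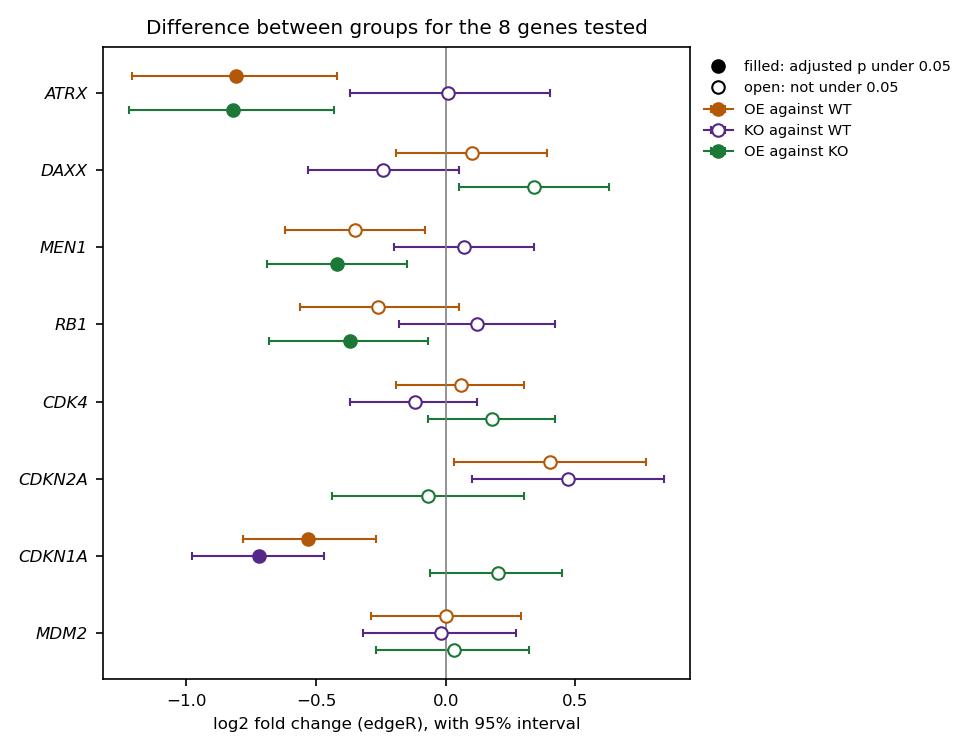
Log2 fold change of each tested gene with its 95% interval (horizontal axis, edgeR) in OE-labelled libraries against WT, in KO against WT and in OE-labelled libraries against KO, with filled points for an adjusted p under 0.05. CDKN1A lies below 0 in both comparisons with WT (-0.53 and -0.72), and ATRX lies near -0.8 in both comparisons of OE-labelled libraries.

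CDKN1A (ENSG00000124762, chromosome 6, 36676460 to 36687337, plus strand, GRCh38) was measured at 123, 135 and 118 CPM in OE-labelled libraries, 118, 111 and 99.9 CPM in KO and 194, 188 and 160 CPM in WT. All 6 libraries labelled OE or KO lay below the lowest WT library, and the same 6 had the higher adrenocortical marker sums, which were mostly DLK1 and SCARB1. In bulk RNA, fewer cells with the CDKN1A transcript and less of it per cell cannot be told apart. In KO against WT the log2 fold change was -0.72 ± 0.12 (95% interval -0.98 to -0.47, adjusted p = 0.000404), a level 0.606 times that of WT. For OE-labelled libraries it was -0.53 ± 0.12 (-0.78 to -0.27, adjusted p = 0.00669), a level 0.694 times that of WT. Both calls were kept in all 21 alternative settings, with fold changes from -0.67 to -0.47 in OE-labelled libraries (highest adjusted p = 0.0455) and from -0.80 to -0.66 in KO (highest adjusted p = 0.00472). OE-labelled libraries averaged 125 ± 8.64 CPM and KO 109 ± 8.88 CPM (SD, n = 3 each). That difference of 0.20 ± 0.12 on the log2 scale did not pass the test (-0.06 to 0.45, adjusted p = 0.208), and with counts corrected for transcript length it was -0.00. The lowest OE-labelled and the highest KO library both round to 118 CPM.

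The stretch before the CDKN1A start is shown because, of the 9 genes, this was the one lower in both altered groups. Its product p21 is known to be controlled largely through transcription. The 250 bases before the RefSeq start (GRCh38.p14, chr6:36678464-36678713, plus strand, its last 4 bases annotated as exon) read 5′ to 3′ as follows, with capitals at each GC box GGGCGG, the letters bound by Sp1-type factors.
CDKN1A promoter: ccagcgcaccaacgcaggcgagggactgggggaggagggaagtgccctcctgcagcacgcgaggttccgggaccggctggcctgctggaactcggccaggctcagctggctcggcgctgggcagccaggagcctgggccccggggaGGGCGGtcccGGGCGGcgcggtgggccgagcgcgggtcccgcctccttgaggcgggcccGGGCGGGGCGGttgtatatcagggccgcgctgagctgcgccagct
The stretch held 4 GC boxes, of which the last 2 overlap at a shared G, and no E-box CACGTG and no E2F motif TTTNGCGC on either strand. Of 34943 RefSeq promoters of the same length, 42.5% held a GC box, 6.3% an E-box and 1.5% the E2F motif. These matches describe letters only, and the libraries measured no binding.

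Other targets that the MDM2-restrained stress factor is known to switch on were called in both directions, and most did not pass the test. Of 24 tested targets in a list of 26 other genes, 1 was higher and 2 were lower in OE-labelled libraries against WT (median log2 fold change -0.03), and 3 were higher and 4 lower in KO against WT (median -0.04), beside a median of -0.01 for all genes in each comparison. In KO, CCNG1 (cyclin G1) was at 63.8 ± 5.96 CPM, against 141 ± 6.13 CPM in WT (-1.15 ± 0.12, adjusted p = 5.55e-06). PHLDA3, a brake on AKT signalling, was at 1.65 ± 1.3 CPM in KO and 8.04 ± 1.31 CPM in WT (-2.29 ± 0.45, adjusted p = 0.00174). Other genes of the list went the opposite way. RRM2B, a ribonucleotide reductase subunit for DNA repair, was at 94 ± 9.91 CPM in KO and 47.2 ± 7.81 CPM in WT (0.99 ± 0.15, adjusted p = 0.000127), and the antiproliferative gene BTG2 was at 11 ± 0.119 CPM in KO and 5.07 ± 1.45 CPM in WT (1.12 ± 0.24, adjusted p = 0.00363). In OE-labelled libraries, FDXR, the ferredoxin reductase that also feeds electrons to steroid-making enzymes, was at 570 ± 125 CPM, against 350 ± 54.8 CPM in WT (0.70 ± 0.16, adjusted p = 0.00751). Between the altered groups, 4 of the 24 were higher and 5 lower in OE-labelled libraries than in KO. Among all genes tested, 9.65% were higher and 11% lower in OE-labelled libraries against WT. The shares were 9.16% and 9.6% in KO against WT, and 19% and 20.6% in OE-labelled libraries against KO. CCNG1 stood at 157 ± 13.7 CPM in OE-labelled libraries and 63.8 ± 5.96 CPM in KO (1.30 ± 0.12, adjusted p = 9.85e-07), whereas CDKN1A did not pass that test. Without KO replicate 3, and likewise without OE replicate 2, the 4 and 5 of the list were 2 and 3. Without KO replicate 2, the 4 that were lower in KO than in WT were 2.

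MDM2 (ENSG00000135679, chromosome 12, 68808177 to 68850686, plus strand), which encodes the ligase itself and is also one of its own axis's targets, did not pass the test in any comparison unless counts were corrected for length. It was measured at 61.5, 81.2 and 72.4 CPM in OE-labelled libraries, 66.5, 64.4 and 80.1 CPM in KO and 68.6, 72.4 and 73.5 CPM in WT. The 3 groups overlapped, and the highest and the lowest of the 9 values were both in OE-labelled libraries. The log2 fold change was 0.00 ± 0.14 in OE-labelled libraries against WT (95% interval -0.29 to 0.29) and -0.02 ± 0.14 in KO against WT (-0.32 to 0.27). With the length correction, OE-labelled libraries stood at 0.36 above WT (adjusted p = 0.0912, and 0.35 at adjusted p = 0.0548 with the replicate block as well) and at 0.51 above KO (adjusted p = 0.00997), against 0.03 relative to KO without it (adjusted p = 0.901). The correction used the merged exon length of 13448 nt, which joins all annotated transcripts and can exceed any one of them.

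CDKN2A (ENSG00000147889, chromosome 9, 21967753 to 21995301, minus strand) had its highest values in single libraries of both altered groups. It was measured at 242, 323 and 212 CPM in OE-labelled libraries, 323, 285 and 208 CPM in KO and 198, 229 and 162 CPM in WT. In each altered group 2 of 3 libraries lay above the highest WT library and 1 lay within the WT range. The log2 fold change was 0.40 ± 0.17 in OE-labelled libraries against WT (95% interval 0.03 to 0.77, adjusted p = 0.114) and 0.47 ± 0.17 in KO against WT (0.10 to 0.84, adjusted p = 0.0722), so neither passed the threshold. The KO value sat close to it: the gene was called in 9 of 21 alternatives, among them the length correction (0.49, adjusted p = 0.0285) and those that left out WT replicate 2 (0.59, adjusted p = 0.0458), KO replicate 3 (0.63, adjusted p = 0.0241) or OE replicate 2 (0.47, adjusted p = 0.0302). In OE-labelled libraries it was called in 4 of 21, one of them without WT replicate 2 (0.53, adjusted p = 0.0485). The counts join p16 and ARF, which share exons, so the products cannot be told apart here. Another 15.4% of its exon length is shared with the antisense gene CDKN2B-AS1, and reads there were left out. CDKN2B-AS1 itself, at no more than 47 counts in a library, was lower in OE-labelled libraries than in WT (-1.33, adjusted p = 0.0208). The neighbour CDKN2B (-0.24 in OE-labelled libraries and 0.20 in KO, each against WT) did not pass the test in any comparison, nor did MTAP.

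CDK4 (ENSG00000135446, chromosome 12, 57747727 to 57756013, minus strand), the kinase that p16 inhibits, was measured at 264, 300 and 260 CPM in OE-labelled libraries, 265, 240 and 222 CPM in KO and 262, 292 and 239 CPM in WT. All 3 groups overlapped. The log2 fold change was 0.06 ± 0.12 in OE-labelled libraries against WT (95% interval -0.19 to 0.30) and -0.12 ± 0.12 in KO against WT (-0.37 to 0.12), and no alternative called the gene. Of its exon length, 44.2% is shared with TSPAN31 on the opposite strand, and reads from that stretch were left out, so its level is partial.

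**Figure D2:**
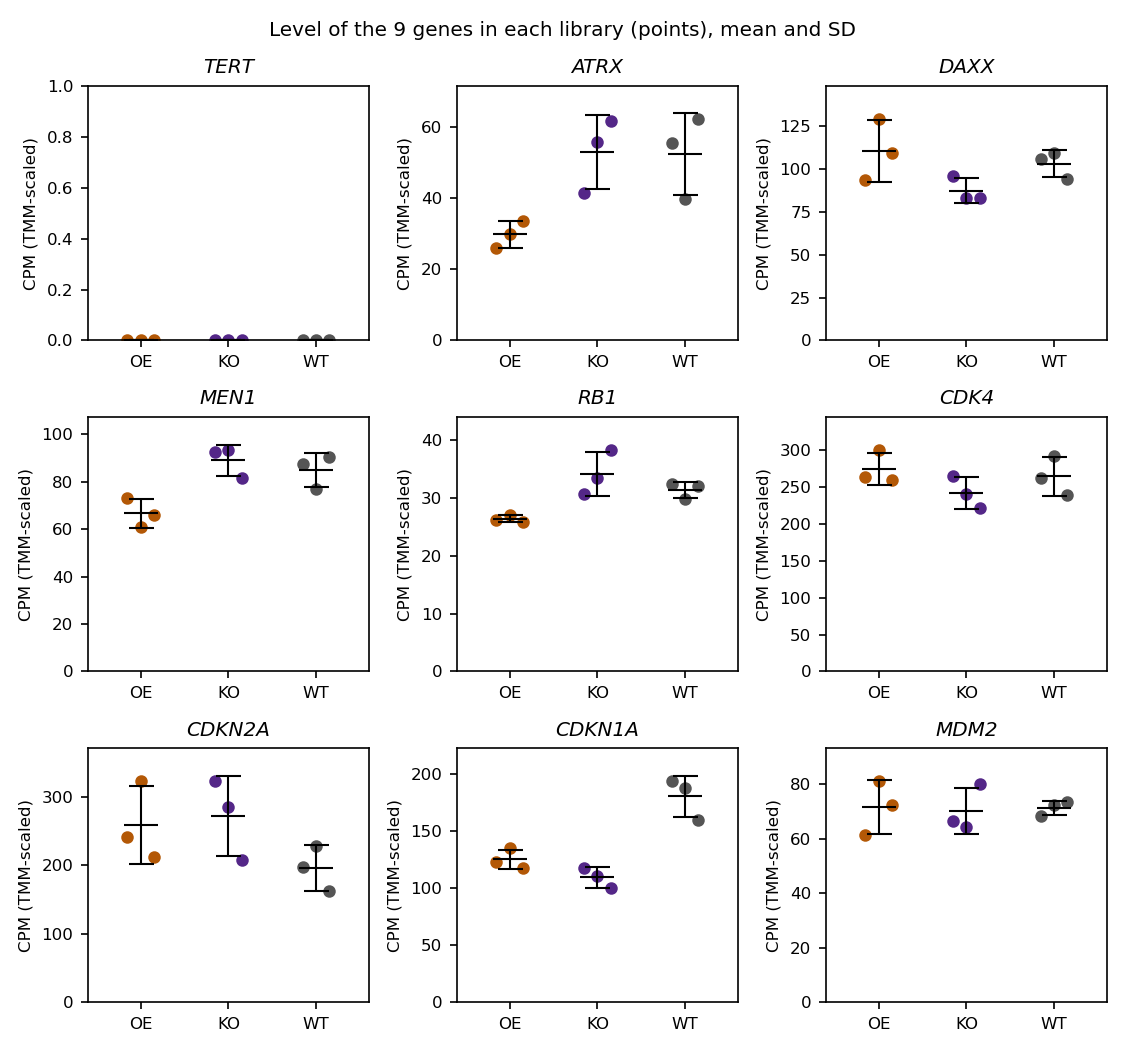
TMM-scaled CPM (vertical axes, each from 0) of the 9 genes in every library (points), with the mean and SD of each group (bars), OE-labelled libraries at left, KO in the middle and WT at right. CDKN1A in WT (160 to 194 CPM) lies above both altered groups, ATRX is lowest in OE-labelled libraries (26.1 to 33.7 CPM), and TERT is at 0 in all 9 libraries.

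RB1 (ENSG00000139687, chromosome 13, 48303744 to 48599436, plus strand), the pocket protein downstream of CDK4, was measured at 26.2, 27 and 25.8 CPM in OE-labelled libraries, 30.6, 33.4 and 38.2 CPM in KO and 32.3, 29.8 and 32 CPM in WT. OE-labelled libraries lay below all others, although only by a few CPM. RB1 was lower in them than in KO (-0.37 ± 0.14, 95% interval -0.68 to -0.07, adjusted p = 0.048), and against WT the difference did not pass the test (-0.26 ± 0.14, adjusted p = 0.222). The call against KO was kept in only 6 of 21 alternatives, and was lost with the length correction (-0.25, adjusted p = 0.163) and in 8 of the 9 settings that leave out 1 library, with adjusted p of 0.0516 without WT replicate 2, 0.06 without WT replicate 3, 0.0648 without WT replicate 1, 0.0851 without OE replicate 2, 0.0996 without OE replicate 1, 0.0996 without KO replicate 2, 0.124 without OE replicate 3 and 0.178 without KO replicate 3. In KO, RB1 stood at 0.12 ± 0.14 relative to WT (-0.18 to 0.42, adjusted p = 0.631).

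CDKN1A and CDKN2A can also be read against CDK4 within a library, which removes the scaling between libraries. These ratios were chosen after the values were seen. The ratio of CDKN1A to CDK4 counts was 0.466, 0.45 and 0.455 in OE-labelled libraries, 0.444, 0.461 and 0.45 in KO and 0.74, 0.643 and 0.671 in WT. The altered groups lay within a narrow band, and both lay below all WT libraries. On the log2 scale the mean difference was -0.58 in OE-labelled libraries against WT and -0.60 in KO against WT, each with an exact two-sided permutation p of 0.1, the smallest that 3 against 3 allows. The ratio of CDKN2A to CDK4 was 0.919, 1.08 and 0.817 in OE-labelled libraries, 1.22, 1.18 and 0.938 in KO and 0.757, 0.784 and 0.68 in WT, again with no overlap between either altered group and WT. Its mean difference on the log2 scale was 0.33 in OE-labelled libraries against WT and 0.58 in KO against WT, both at an exact permutation p of 0.1. CDKN2A on its own overlapped WT in both altered groups and did not pass the edgeR test (adjusted p = 0.114 in OE-labelled libraries and 0.0722 in KO). Read against each other, CDKN1A counts were 0.507, 0.418 and 0.557 times those of CDKN2A in OE-labelled libraries, 0.364, 0.389 and 0.48 times in KO and 0.978, 0.82 and 0.987 times in WT. That difference was -0.91 on the log2 scale in OE-labelled libraries against WT and -1.18 in KO against WT, with the same smallest exact permutation p of 0.1. Any groups of 3 that do not overlap give this p, so it adds nothing to the separation itself. How often other pairs of genes separate in this way was not measured.

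**Figure D3:**
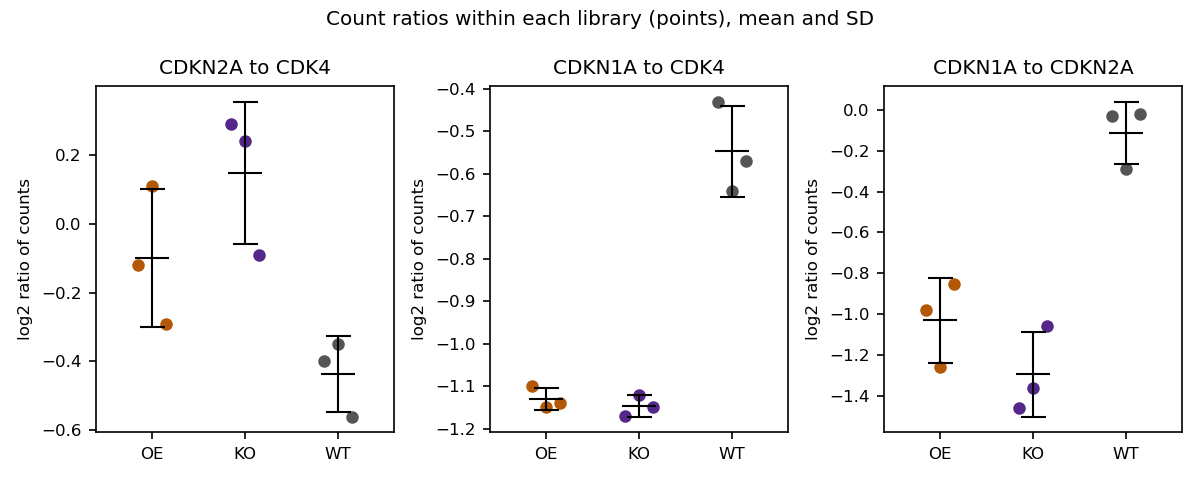
Log2 ratio of the counts of CDKN2A to CDK4, CDKN1A to CDK4 and CDKN1A to CDKN2A within each library (points), with group mean and SD, OE-labelled libraries at left, KO in the middle and WT at right. CDKN1A to CDK4 lies between -1.17 and -1.10 in the 6 altered libraries and between -0.64 and -0.43 in WT.

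Among other G1 genes, some were higher in KO. Of 14 tested G1 cyclins, kinases and inhibitors beyond the 9 genes, 2 were higher and 1 was lower in OE-labelled libraries against WT (median 0.05). In KO against WT 6 were higher and 0 lower (median 0.24), and in OE-labelled libraries against KO 0 were higher and 4 lower (median -0.28). Among all genes tested, the higher and lower shares were 9.65% and 11%, 9.16% and 9.6%, and 19% and 20.6%, in the same order. CDK6, which shares the role of CDK4, was at 230 ± 44.3 CPM in KO, against 105 ± 24.8 CPM in WT (1.13 ± 0.17, adjusted p = 0.00018). SKP2, part of the ligase that degrades the kinase inhibitor p27 and also p21, was at 334 ± 27 CPM in KO and 195 ± 2.64 CPM in WT (0.77 ± 0.11, adjusted p = 0.000109). Both were lower in OE-labelled libraries than in KO, CDK6 at 92 ± 11.2 CPM (-1.32 ± 0.17, adjusted p = 2.69e-05) and SKP2 at 185 ± 18.2 CPM (-0.85 ± 0.11, adjusted p = 2.66e-05). Neither passed the test in OE-labelled libraries against WT (CDK6 -0.19 ± 0.17, adjusted p = 0.469, and SKP2 -0.08 ± 0.11, adjusted p = 0.657). CCND3 (cyclin D3) was at 191 ± 21.7 CPM in OE-labelled libraries and 128 ± 14.8 CPM in WT (0.57 ± 0.13, adjusted p = 0.00593). At 180 ± 16.7 CPM it was higher in KO than in WT too (0.49 ± 0.13, adjusted p = 0.012), a call kept in 18 of 21 alternatives. CCND3 did not pass the test in OE-labelled libraries against KO (0.08 ± 0.13, adjusted p = 0.647). CCND1 reached at most 13 counts and was not tested. With the length correction, the 4 that were lower in OE-labelled libraries than in KO were 9. The count of 6 in KO was 2 without WT replicate 3 and 3 without WT replicate 1, without KO replicate 1 or without KO replicate 2.

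In a list of 16 pocket proteins, E2F factors, TFDP genes and LIN genes beside RB1, 0 were higher and 2 lower in OE-labelled libraries against WT (median -0.32). In KO against WT 1 was higher and 1 lower (median 0.13), and in OE-labelled libraries against KO 1 was higher and 8 lower (median -0.39). Shares among all genes tested were 9.65% higher and 11% lower, 9.16% and 9.6%, and 19% and 20.6%, in the same order. E2F7, a repressor of E2F targets, was at 11.9 ± 2.73 CPM in OE-labelled libraries, 27.3 ± 7.03 CPM in KO and 23.8 ± 3.78 CPM in WT. It was lower in OE-labelled libraries than in WT (-0.99 ± 0.22, adjusted p = 0.00523) and than in KO (-1.19 ± 0.21, adjusted p = 0.000438). The count of 8 was 5 without KO replicate 1 and 5 without OE replicate 3.

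Proliferation markers moved beside these genes in part, and their part in the differences above was not tested. MKI67, which encodes the Ki-67 antigen, was measured at 43.1, 23 and 35.5 CPM in OE-labelled libraries, 127, 158 and 169 CPM in KO and 233, 94.5 and 303 CPM in WT. All libraries labelled OE lay below all others (-2.63 ± 0.31 against WT, adjusted p = 0.000104, and -2.26 with the length correction), and WT was the widest group. TOP2A was lower in OE-labelled libraries than in WT as well (-0.58 ± 0.11, adjusted p = 0.00256). In all, 0 of 14 markers were higher and 2 lower in OE-labelled libraries against WT. In KO against WT 2 were higher and 2 lower, and in OE-labelled libraries against KO 2 were higher and 5 lower. Shares among all genes tested were 9.65% higher and 11% lower, 9.16% and 9.6%, and 19% and 20.6%, in the same order. The 2 higher in KO than in WT, CCNA2 and AURKA, were 0 when WT replicate 1 or 3, any KO replicate or OE replicate 3 was left out, and also with upper-quartile scaling or library totals alone. With the length correction, 5 markers were lower in OE-labelled libraries than in WT and 8 were lower than in KO. In KO, CCNB1 (cyclin B1) was at 305 ± 11.5 CPM and 516 ± 65.7 CPM in WT (-0.76 ± 0.11, adjusted p = 0.000121), and the replication clamp PCNA was at 236 ± 16.2 CPM in KO and 359 ± 61.3 CPM in WT (-0.60 ± 0.13, adjusted p = 0.00349).

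ATRX (ENSG00000085224, chromosome X, 77504880 to 77786233, minus strand), the chromatin remodeller of the H3.3 pair, was measured at 26.1, 30 and 33.7 CPM in OE-labelled libraries, 41.4, 55.9 and 61.8 CPM in KO and 55.5, 39.7 and 62.3 CPM in WT. OE-labelled libraries lay below all 6 others, while KO and WT overlapped. The log2 fold change was -0.81 ± 0.19 in OE-labelled libraries against WT (95% interval -1.21 to -0.42, adjusted p = 0.00729) and -0.82 ± 0.19 against KO (-1.22 to -0.43, adjusted p = 0.00239), and 0.01 ± 0.18 in KO against WT (-0.37 to 0.40, adjusted p = 0.973). Transcript length moved with this result. ATRX has a merged exon length of 22740 nt, and the 2830 tested genes with the longest exons, 1 of 5 equal groups, had a median of -0.29 in OE-labelled libraries against WT and -0.38 against KO, beside 0.24 and 0.34 in the group with the shortest. With each library's counts corrected for length, ATRX stood at -0.29 against WT (adjusted p = 0.185) and at -0.15 against KO (adjusted p = 0.46), and neither call remained. Both calls were kept in all alternatives that left out a library.

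**Figure D4:**
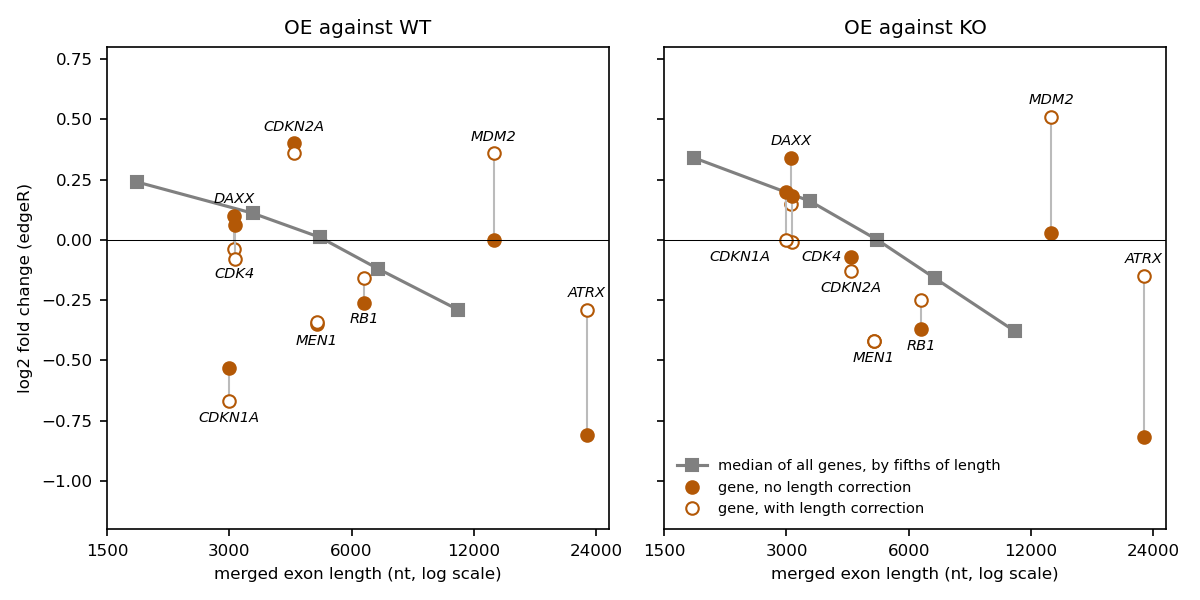
Log2 fold change (vertical axis, edgeR) against merged exon length (horizontal axis, log scale) for the 8 tested genes without (filled) and with (open) the length correction, and the median of all genes in 5 equal groups by length (grey squares), for OE-labelled libraries against WT (left) and against KO (right). Against WT, ATRX, the longest at 22740 nt, stands at -0.29 with the correction and -0.81 without it, and CDKN1A, at 2996 nt, at -0.67 with it and -0.53 without it.

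DAXX (ENSG00000204209, chromosome 6, 33318558 to 33323016, minus strand), the H3.3 chaperone that partners ATRX, was measured at 93.3, 129 and 109 CPM in OE-labelled libraries, 95.8, 82.9 and 83.1 CPM in KO and 106, 109 and 94.2 CPM in WT. The groups overlapped, with KO tending to the low end. No comparison passed the test (0.10 ± 0.14 in OE-labelled libraries against WT, adjusted p = 0.646, and -0.24 ± 0.14 in KO against WT, adjusted p = 0.244). For DAXX in OE-labelled libraries against KO the value was 0.34 ± 0.14 (95% interval 0.05 to 0.63, adjusted p = 0.0554), and 8 of 21 alternatives called it, among them those that left out OE replicate 1 (0.45, adjusted p = 0.0227), KO replicate 1 (0.41, adjusted p = 0.0487) or WT replicate 2 (0.36, adjusted p = 0.0396). With the length correction it was 0.15. Of 15 other genes of H3.3 deposition and heterochromatin, 0 were higher and 2 lower in OE-labelled libraries against WT, 0 were called in KO against WT, and 2 were higher and 3 lower in OE-labelled libraries against KO. The 2 higher were 0 when any KO replicate or OE replicate 3 was left out. Shares among all genes tested were 9.65% higher and 11% lower, 9.16% and 9.6%, and 19% and 20.6%, in the order of these 3 comparisons. CABIN1, a subunit of the HIRA complex that places H3.3 outside repeats, was at 27.1 ± 2.03 CPM in OE-labelled libraries, 66.9 ± 5.41 CPM in KO and 55.1 ± 15.5 CPM in WT. It was lower in OE-labelled libraries than in WT (-1.02 ± 0.18, adjusted p = 0.00151), and at -0.78 it kept its call with the length correction (adjusted p = 0.0023).

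MEN1 (ENSG00000133895, chromosome 11, 64803510 to 64811294, minus strand) was measured at 73.2, 61.1 and 65.8 CPM in OE-labelled libraries, 92.5, 93.3 and 81.6 CPM in KO and 87.4, 76.8 and 90.6 CPM in WT. OE-labelled libraries lay below all others, while KO and WT overlapped. MEN1 was lower in OE-labelled libraries than in KO (-0.42 ± 0.13, 95% interval -0.69 to -0.15, adjusted p = 0.0159), and at -0.35 ± 0.13 the difference from WT missed the threshold (-0.62 to -0.08, adjusted p = 0.0632). The first of these was the same size with the length correction (-0.42), and it lost its call when KO replicate 2 (adjusted p = 0.0693), OE replicate 2 (0.0705) or OE replicate 3 (0.0534) was left out. The second was called in 7 of 21 alternatives, with an adjusted p of 0.0468 under the length correction and 0.0375 without WT replicate 2. KO against WT gave 0.07 ± 0.13 for MEN1 (-0.20 to 0.34, adjusted p = 0.765).

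Some partners of menin were lower in OE-labelled libraries. In a list of 12 tested menin partners and members of KMT2 methyltransferase complexes, 0 were higher and 5 lower in OE-labelled libraries against WT (median -0.28). In KO against WT 0 were higher and 1 lower (median 0.07), and in OE-labelled libraries against KO 1 was higher and 5 lower (median -0.30). All genes tested had 9.65% higher and 11% lower, 9.16% and 9.6%, and 19% and 20.6%, in the same order. The fifth with the longest exons had 3.22% higher and 26.5% lower in OE-labelled libraries against WT, and 7.14% and 42.6% against KO. KMT2A, the methyltransferase that menin binds, was at 14.5 ± 4.8 CPM in OE-labelled libraries and 35.7 ± 11.1 CPM in WT (-1.29 ± 0.24, adjusted p = 0.00203). HCFC1, a host cell factor of the same list, was at 66.7 ± 11.8 CPM in OE-labelled libraries and 175 ± 58.7 CPM in WT (-1.39 ± 0.21, adjusted p = 0.000467). Both are long, and with the length correction they stood at -0.70 (adjusted p = 0.0073) and -1.15 (adjusted p = 0.000137). KMT2A was also lower in OE-labelled libraries than the 29.2 ± 4.14 CPM of KO (adjusted p = 0.00354), a call lost with the length correction (-0.26, adjusted p = 0.24). Without WT replicate 1 or WT replicate 3, the count of 5 against WT was 3.

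TERT (ENSG00000164362, chromosome 5, 1253147 to 1295068, minus strand) had 0 counts in each of the 9 libraries. A floor of 3 counts allows a level of up to 0.275 to 0.375 CPM in a single library, and of up to 0.0375 CPM over the 79977723 counts of all 9. These floors use library totals without TMM scaling. Reads of a pair are counted singly, so 3 counts can come from fewer fragments and the floors may be too low. Only 1.79% of its exon length is shared with another annotated gene, so nearly all of that length could be counted. With poly-A selection and unique counting at this depth TERT RNA was not detectable, and no comparison can be made. Of 15 tested genes of telomerase, shelterin and telomere upkeep, 4 were higher and 0 lower in OE-labelled libraries against WT (median 0.23). In KO against WT 0 were higher and 1 lower (median -0.08), and in OE-labelled libraries against KO 4 were higher and 1 lower (median 0.24). Among all genes tested, the higher and lower shares were 9.65% and 11%, 9.16% and 9.6%, and 19% and 20.6%, in the same order. NHP2, a protein of the telomerase and small nucleolar particles, was at 96.7 ± 11.7 CPM in OE-labelled libraries, 28.2 ± 3.21 CPM in KO and 61.2 ± 11.5 CPM in WT. It was lower in KO than in WT (-1.12 ± 0.16, adjusted p = 0.000111) and higher in OE-labelled libraries than in WT (0.66 ± 0.16, adjusted p = 0.00808), a call lost without WT replicate 3 (adjusted p = 0.0518). The count of 4 against WT was 2 with the length correction and 1 without WT replicate 3, and that of 4 against KO was 2 with the length correction and without KO replicate 2, KO replicate 3, OE replicate 2 or OE replicate 3. TERC, the telomerase RNA, which mostly lacks a poly-A tail, was at 0, as was TEN1, and RTEL1 reached at most 5 counts. These genes share 81%, 75.9% and 70.2% of their exon length with another annotation, where reads were left out.

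Some of the other genes that recur in adrenocortical carcinoma were lower in OE-labelled libraries. Of 17 tested, 0 were higher and 8 lower in OE-labelled libraries against WT (median -0.33), 3 were higher and 1 lower in KO against WT (median 0.21), and 1 was higher and 10 lower in OE-labelled libraries against KO (median -0.33). Beside these, all genes tested had 9.65% higher and 11% lower, 9.16% and 9.6%, and 19% and 20.6%, in the same order. Within the fifth with the longest exons, 3.22% were higher and 26.5% lower in OE-labelled libraries against WT, and 7.14% and 42.6% against KO. KMT2C, a histone methyltransferase, was at 24.3 ± 4.3 CPM in OE-labelled libraries and 64.6 ± 23.2 CPM in WT (-1.40 ± 0.22, adjusted p = 0.000597). APC, a brake on WNT signalling, was at 19.6 ± 5.05 CPM in OE-labelled libraries and 43.4 ± 15.4 CPM in WT (-1.14 ± 0.25, adjusted p = 0.00545). With the length correction they stood at -0.91 (adjusted p = 0.000423) and -0.80 (adjusted p = 0.00581), and the count of 8 was 4. It was 3 without WT replicate 1 and 2 without WT replicate 3. The 3 higher and 1 lower in KO against WT were 5 and 3 with the length correction. IGF2, the growth factor whose excess marks many of these carcinomas, was at 20.3 ± 11.3 CPM in OE-labelled libraries and 146 ± 38.7 CPM in KO (-2.84 ± 0.41, adjusted p = 6.34e-05). In KO it was higher than the 55.2 ± 32.5 CPM of WT (1.40 ± 0.38, adjusted p = 0.0162), a call lost without KO replicate 2 (adjusted p = 0.0823) and in DESeq2 (adjusted p = 0.0896).

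**Figure D5:**
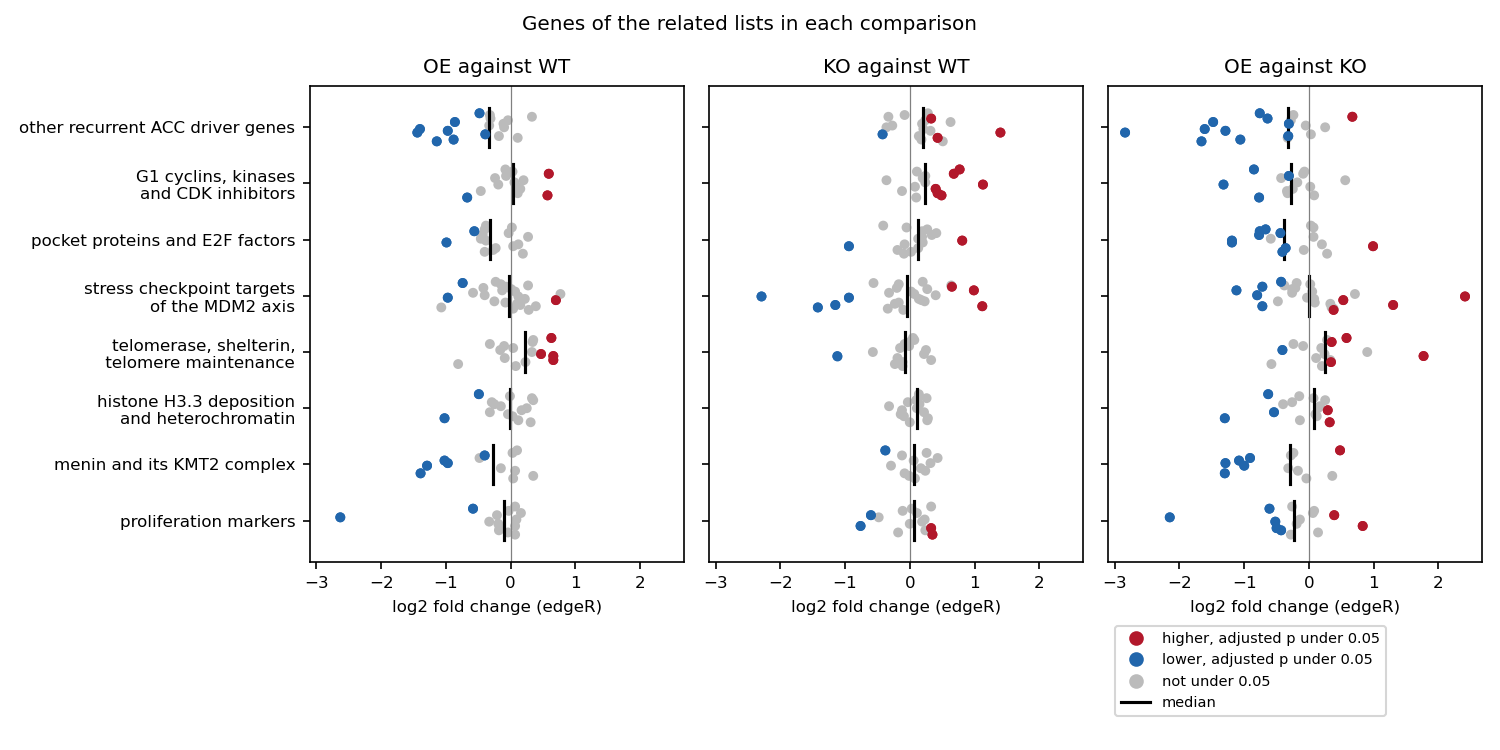
Log2 fold change (horizontal axes, edgeR) of each tested gene in the 8 related lists, in OE-labelled libraries against WT (left), KO against WT (middle) and OE-labelled libraries against KO (right), with the median of each list as a bar and red or blue points for an adjusted p under 0.05. The driver and menin lists have medians of -0.33 and -0.28 at left, and the G1 list has a median of 0.24 in the middle.

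Small counts in these lists turned on few genes. Without WT replicate 1, OE-labelled libraries against WT had 1 called gene in each of the G1, E2F and H3.3 lists and in that of the stress checkpoint targets, and KO against WT had 0 in the E2F list and 1 among the other driver genes. Of the 4 driver genes called in KO against WT there was 1 without KO replicate 2 and there were 2 without WT replicate 2, and without KO replicate 3 there were 0 called in the E2F list. Without WT replicate 2, the H3.3 list had 2 higher and 3 lower in OE-labelled libraries against WT. The single menin partner called in KO was lost when any WT or KO library was left out.

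Levels per length ran over a wide range among the 9 genes. As the mean over 9 libraries, in TPM (counts divided by merged exon length, then by the library's sum), CDK4 was first at 314, followed by CDKN2A at 208, CDKN1A at 174, DAXX at 121 and MEN1 at 62.1. MDM2 at 19.9, RB1 at 18 and ATRX at 7.66 came after them, and TERT was at 0. CDK4 stood above 96% of the tested genes and ATRX above 32.4%. Merged lengths understate long genes with many transcripts, such as ATRX and MDM2, and MDM2 and RB1 differed by less than the spread of either over libraries. Within a group, the highest coefficient of variation of CPM among the 8 genes was 22% in OE-labelled libraries (CDKN2A), 21.4% in KO (CDKN2A) and 22.1% in WT (ATRX), and the lowest of all was 2.32% for RB1 in OE-labelled libraries.

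Groups that did not overlap in CPM were found for 4 of the 8 genes in OE-labelled libraries against WT (ATRX, MEN1, RB1 and CDKN1A), where 36.4% of all genes did not overlap. For KO against WT it was 1 of 8 (CDKN1A), beside 35.2% of all genes. Against KO, OE-labelled libraries did not overlap for 4 of 8 (ATRX, MEN1, RB1 and CDKN1A), beside 51.7%. Medians over the 50 tested neighbours of each tested gene, taken evenly from both sides, lay between -0.16 and 0.13 in KO against WT and between -0.08 and 0.16 in OE-labelled libraries against WT. In OE-labelled libraries against KO they lay between -0.29 and 0.16, the lowest around ATRX, where 11 neighbours were higher and 16 lower. Around TERT, whose 38 neighbours reach to the chromosome end, 13 were higher and 1 lower in KO against WT (median 0.36), 3 were higher and 3 lower in OE-labelled libraries against WT (median 0.06), and 3 were higher and 13 lower in OE-labelled libraries against KO (median -0.37).

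Over the 9 libraries, the 3 protein-coding genes whose log2 CPM followed CDKN1A most closely were NRSN2 (Pearson r = 0.982), ZNF853 (0.974) and FHIP2B (0.974). For ATRX they were KNL1 (0.984), AKAP9 (0.978) and ZFC3H1 (0.974), for MEN1 PTPN23 (0.985), CNTNAP1 (0.984) and ZNF362 (0.983), and for RB1 ADAT1 (0.982), RAB3GAP2 (0.980) and KIF5B (0.976). These are descriptions over libraries that share their groups, scaling and length slopes, picked as the highest of all genes tested.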

How the data were processed

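The authors deposited raw read counts per gene, 1 table per library, in whole numbers and not normalized. Per the file headers they came from featureCounts 1.5.2 with an Ensembl release 101 annotation of GRCh38, and per the submitters' processing notes from HISAT2 1.03 and featureCounts 0.1.0, so the 2 sources differ in version. With the options in the header, reads of a pair are counted singly (66.9% of counts from 1 to 10 are even), strand is ignored, and multiply mapped reads or reads over more than one gene are dropped. Symbols were found for 60401 of 60671 genes (99.6%), and 0 lines lacked a gene.

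From the counts, all 9 libraries were fitted with edgeR 4.0.16 in R 4.3.3 (TMM, low genes removed by filterByExpr at a minimum count of 10, a group term, quasi-likelihood F test, Benjamini-Hochberg adjustment over 14150 genes, call under 0.05). The steps were tested on simulated data. CPM are TMM-scaled except in the TERT floors. Errors are the SD or, for fold changes, the standard error, and 3 libraries per group limit the precision to a median standard error of 0.187. The length correction fits each library's deviation on log2 exon length by loess (span 0.5) as an offset. DESeq2 1.42.0 and limma 3.58.1 (voom) were alternatives. Same-numbered libraries of different groups correlated from -0.138 to 0.246 and differently numbered ones from -0.281 to 0.224. Whether replicate numbers pair the libraries is therefore not settled, and the replicate block was used only as an alternative. No 2 libraries of a group agreed within sampling noise. Whether replicates came from separate cultures is not stated beyond the word biological, so the p-values describe the variation among these libraries, which may be technical. Floors cover counting error only. The members and related lists were chosen with earlier results of these data known. Named were all 9 genes, SGPL1, up to 4 called genes per list, those of smallest adjusted p (of these, those called in all 21 alternatives, or with the exception given, a choice made after the values were seen), the untested genes of a list, annotated neighbours, and the 3 most similar genes. Promoter sequence is from RefSeq, GRCh38.p14.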

Additional observations from a re-analysis of the deposited data

How the results depend on the processing

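Over the 8 tested genes, 3 comparisons and 21 alternatives, 411 fold changes kept their direction and side of the threshold, 30 passed it newly, 22 lost it and 41 changed sign. Each change of sign was in a comparison that did not call the gene, and the cause was not tested. In KO against WT, ATRX was -0.04 with upper-quartile scaling and with library totals alone, -0.00 at a minimum count of 30, -0.14 with the length correction and -0.16 without WT replicate 2 and OE replicate 2, where MEN1 was -0.00. In OE-labelled libraries against WT, library totals alone gave -0.03 for DAXX, -0.07 for CDK4 and -0.12 for MDM2, and the length correction gave -0.04 for DAXX and -0.08 for CDK4. MDM2 was -0.01 with limma-voom and at a minimum count of 30, -0.00 with only the 2 groups compared and -0.07 without WT replicate 2 and OE replicate 2. In OE-labelled libraries against KO, MDM2 was -0.05 with library totals alone and without WT replicate 2 and OE replicate 2, and the length correction gave -0.01 for CDK4 and -0.00 for CDKN1A.

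Leaving out single libraries gave ranges across 0 for ATRX (-0.16 to 0.17), MEN1 (-0.00 to 0.13) and MDM2 (-0.12 to 0.04) in KO against WT, for DAXX (-0.01 to 0.21), CDK4 (-0.01 to 0.14) and MDM2 (-0.08 to 0.10) in OE-labelled libraries against WT, and for CDKN2A (-0.24 to 0.07) and MDM2 (-0.05 to 0.13) in OE-labelled libraries against KO. Genes called ran from 1764 to 3214 in KO against WT, lowest without KO replicate 2, and from 1244 to 3673 in OE-labelled libraries against WT, lowest without WT replicate 3, with 1381 without WT replicate 1 and 1849 without OE replicate 2. Of the 8 genes, 1 to 2 were called in KO against WT, 2 to 4 in OE-labelled libraries against WT and 1 to 4 in OE-labelled libraries against KO. Without any of the alternatives, 18.8%, 20.7% and 39.7% of all genes tested were called, in the same order. In KO against WT 2 were called, CDKN2A being the second, with no count filter, with only the 2 groups compared, with the length correction and without WT replicate 2 and OE replicate 2.

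Whether replicate numbers pair the libraries is not settled, and not every library correlated best with its own number. With the replicate block, genes called were 3235 in KO against WT, 3757 in OE-labelled libraries against WT and 6135 against KO. Of the 8 genes, 2 were called with the block in KO against WT, 4 in OE-labelled libraries against WT (CDKN2A and MEN1 added), and MDM2 was -0.00 in the last of these. With the replicate block and the length correction, 2 were called in KO against WT, ATRX was -0.15 there, DAXX -0.04 and CDK4 -0.08 in OE-labelled libraries against WT, and CDK4 -0.01 and CDKN1A -0.00 against KO.

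Library totals alone moved the median of all genes to -0.13 in OE-labelled libraries against WT, where 765 genes were higher and 2190 lower, beside 1365 higher and 1559 lower with TMM. Depth limits TERT, at 0 counts, and ATRX and RB1, with 195 to 578 counts a library.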
